A study of Mus musculus with 7 samples.

Results

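The 3′ untranslated regions (3′ UTRs) of nuclear mRNAs held 1023 of the 23288 distinct crosslink positions listed in 7 libraries of individual-nucleotide crosslinking and immunoprecipitation (iCLIP). A position was taken when it lay on the strand of a protein-coding transcript, in a 3′ UTR exon of the GENCODE M21 annotation (mouse build mm10), and in no coding sequence (CDS) or 5′ UTR on that strand. Mitochondrial RNA, the pre-rRNA copy on chromosome 17 and the genes Lars2 and Acvr2b were left out. Of the 1023 positions, 1022 were listed in at least 1 library made with an antibody against DENR, and they lay in 480 genes. The libraries were prepared from NIH3T3 cells, an established line of mouse embryonic fibroblasts, crosslinked with ultraviolet light of 254 nm at 150 mJ/cm2. In 3 libraries DENR was pulled down from cells transiently transfected with Denr in a FLAG-Venus vector (DENR overexpressing), in 2 libraries endogenous DENR was pulled down from cells that had not been transfected (non-transfected), and 2 control libraries used IgG. Nothing in the sources used here says whether libraries of a group came from separate cultures, so p-values measure the spread between libraries, which may be technical. The non-transfected pull-downs started from more culture dishes than the overexpressing ones, so amount of cells and transfection cannot be told apart.

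DENR works with MCTS1 on the small ribosomal subunit after termination, where the pair helps to clear the subunit and allows it to initiate again downstream. The 3′ UTR begins after the stop codon and ends at the poly(A) site. It is normally not translated, and it carries the elements that set stability, localisation and poly(A) site choice, among them the polyadenylation hexamer AATAAA and uridine-rich stretches. Light of this wavelength is known to join protein to uridine more readily than to other bases. In iCLIP the listed nucleotide is inferred from where reverse transcription stopped. Its score is the whole-number height given by the site caller.

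The sites that carry the results are shown first, as 25 nt of the spliced GENCODE transcript on the strand of the gene (mm10), with the listed nucleotide in capitals. The 6 below are from genes with a nucleotide listed in more than 1 DENR library and with no run of 8 uridines nearby.

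Apoc3 (chr9:46233077, minus strand): catgctgtccctAataaagctggat
Grk1 (chr8:13416895, plus strand): cacatcacatgtGatggggggccca
Slc25a37 (chr14:69243541, minus strand): cctgtgtcacttGagaacctccgtc
Col1a2 (chr6:4540678, plus strand): aactcaacctaaAttaaaaaccaaa
Col3a1 (chr1:45348946, plus strand): atgcttttgtttTatttttttacca
Tmem245 (chr4:56870754, minus strand): gaggatcgcgagTtcgaggccagcc

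The next 7 are from genes whose positions lay, all or nearly all, in or beside a run of 8 uridines, as did 319 of the 1022 positions; of the 5 motifs searched it was the most frequent near the sites.

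Actb (chr5:142903502, minus strand): ttttttttttttTtggttttgtctt
Plec (chr15:76172086, minus strand): tttttttttttcTttttttttcctt
Eif4e2 (chr1:87240043, plus strand): gcctttctccttTtttttttttttt
Ywhae (chr11:75764826, plus strand): ttctttctttttCtttttttttttt
Cavin1 (chr11:100958483, minus strand): gggcttttttttTtttttttaaaca
Myh9 (chr15:77760801, minus strand): ttctttttttttTttttaaaggaaa
Trp53 (chr11:69591811, plus strand): ctccctctttttTttttttttaccc

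The last 7 are 4 positions that had the highest score of a list, alone or tied, and were in no other DENR library (Ppp1cb, Selenoo, Gabpa and Fbxw11), 2 positions close to a stop codon, and the only position found with IgG (Socs7).

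Ppp1cb (chr5:32491314, plus strand): aaagttctatctTctcatatcacag
Selenoo (chr15:89100200, plus strand): tcatgctagaatAtcagtctcatgt
Gabpa (chr16:84863374, plus strand): caagttctgtcaTtttctgcatttg
Fbxw11 (chr11:32744989, plus strand): gctctgacgtgcAtaggaatgtgtc
Hist1h4d (chr13:23581926, plus strand): acgtactcatttAtttttcttcacc
Sparc (chr11:55395545, minus strand): ctctctccctctGatgtgtcccccc
Socs7 (chr11:97394039, plus strand): ggtgtgcattttGttgactaaattc

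DENR pull-downs gave at least 36 3′ UTR sites each, and IgG pull-downs at most 1. In DENR overexpressing replicates 1 to 3 there were 36, 527 and 259 such sites. Without transfection there were 39 and 186, and with IgG 0 and 1. The DENR and IgG libraries did not overlap, and the mean of log10(sites + 1) was 2.12 ± 0.51 (SD, n = 5) with anti-DENR and 0.151 ± 0.213 (SD, n = 2) with IgG. This is a 92.3-fold difference in sites + 1 (exact permutation test, two-sided, p = 0.0952, the smallest that 21 splits allow; Benjamini-Hochberg adjusted p = 0.667 over 7 tests). The IgG lists were short as a whole, with 19 and 234 sites of any kind against 4012 to 16137 in the DENR lists. In the second of them 3′ UTR sites made up 0.427% of the list (95% Clopper-Pearson interval 0.0108 to 2.36%), against 0.897, 3.27 and 2.54% with DENR overexpression and 0.902 and 2.59% without transfection. That interval rests on 1 site and holds 0.897 and 0.902%. It lies below the other DENR shares but overlaps the intervals of overexpressing replicate 3 (2.24 to 2.86%) and non-transfected replicate 2 (2.23 to 2.98%). The interval of IgG replicate 1, which had no 3′ UTR site, was 0 to 17.6% and holds every DENR share. No test of the share against IgG was made. Intervals cover counting error only, because neighbouring sites of a list are not independent.

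Overexpression did not separate from endogenous DENR in the number of 3′ UTR sites or in their share of mRNA sites. On the log10 scale the number of sites averaged 2.23 ± 0.60 (SD, n = 3) with overexpression and 1.93 ± 0.48 (SD, n = 2) without transfection, a difference of 0.30 (exact permutation test, p = 0.6; 3 against 2 libraries cannot go below 0.2). Among exonic sites of nuclear mRNAs, 3′ UTRs took 35.6, 44.2 and 26.5% in the overexpressing libraries and 23.5 and 50.3% in the non-transfected ones. The lowest and the highest share were thus both from non-transfected cells, and the group means differed by -1.44 percentage points (exact permutation test, p = 1). Without non-transfected replicate 2 the difference was 11.9 points in the other direction.

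**Figure D1:**
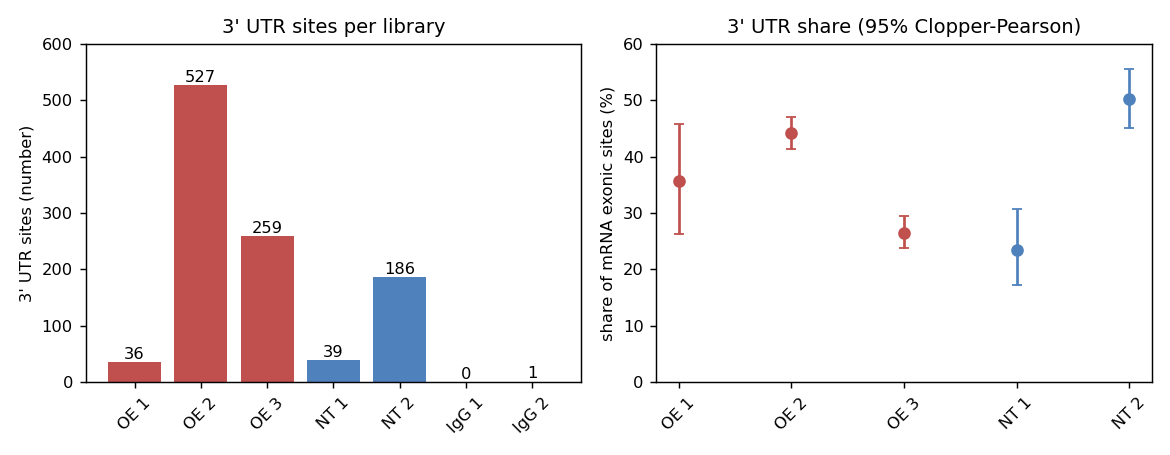
Left, number of 3′ UTR crosslink sites in each library (OE, DENR overexpressing; NT, non-transfected; IgG, control), from 527 in OE 2 to 0 in IgG 1. Right, 3′ UTR sites as a percentage of all exonic mRNA sites of the library with 95% Clopper-Pearson intervals, where NT 1 is lowest at 23.5% and NT 2 highest at 50.3%.

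The sites were low in score. The mean score of a 3′ UTR site was 1.50, 1.70 and 2.27 with overexpression, 1.69 and 1.43 without transfection, and 69.4, 58.4, 36.3, 56.4 and 69.4% of the sites had the lowest score of 1. In the CDS the mean score was higher in all 5 libraries (2.02, 2.12, 2.68, 1.94 and 1.93). The mean difference was -0.42 ± 0.11 (SD, n = 5; exact sign-flip permutation test, two-sided, p = 0.0625, the smallest possible with 5 libraries, also after adjustment over 4 such measures). The share of sites with a score of 1 was 25.4 ± 11.2 percentage points higher in 3′ UTRs than in the CDS, again in 5 of 5 libraries (exact sign-flip permutation test, p = 0.0625).

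The highest 3′ UTR score of a list was between 4 and 10. In DENR overexpressing replicate 1 it belonged to Ppp1cb, a catalytic subunit of protein phosphatase 1, with a score of 6 at 256 nt after the stop codon. In replicate 2 a score of 10 was shared by Selenoo, a mitochondrial selenoprotein, and by Apoc3. In replicate 3 a score of 7 was shared by Gabpa, an ETS-family transcription factor subunit, and again by Apoc3. In non-transfected replicate 1 a score of 4 was shared by Fbxw11, an F-box protein of an SCF ubiquitin ligase, and by Bcap31, an endoplasmic reticulum protein. In non-transfected replicate 2 Apoc3 had the highest score, 7. Apart from Apoc3, each of these positions was listed in 1 library. The IgG position in Socs7, an adaptor of the cytokine signalling suppressor family, had a score of 3 at 681 nt from the stop codon and was in no DENR list.

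Over all lists 97.4% of the sites in 3′ UTR sequence were sense, with 28 antisense sites. Of the 1023 positions in any list, 16 also lay in another gene on the same strand, and 100 were intronic in another transcript of their own gene. A further check covered ribosomal, small nuclear, small nucleolar and other small RNA genes, mitochondrial transcripts and the stretches of Lars2 and Acvr2b with sites. It found 11 positions in 7 genes whose surroundings matched one of these, among them Tmem245.

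Uridine was the most frequent base at 3′ UTR sites. It occupied 55.6, 59.6 and 52.9% of the sites in the overexpressing libraries and 53.8 and 57.5% in the non-transfected ones, with group means of 56.0 ± 3.4 (SD, n = 3) and 55.7 ± 2.6% (SD, n = 2; exact permutation test, p = 1). The whole 3′ UTRs of the same genes are 30.1% uridine. Over the 1022 positions the bases were U at 588, A at 168, C at 153 and G at 113. At CDS sites uridine made up 21.1, 32.5, 36.5, 34.8 and 37.8% in the 5 libraries, where the coding sequences as a whole hold 21.5%. The 3′ UTR share was higher by 23.4 ± 7.4 percentage points (SD, n = 5), in 5 of 5 libraries (exact sign-flip permutation test, p = 0.0625, the smallest possible). How far the base preference of crosslinking enters these shares was not tested.

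The uridine enrichment reached beyond the listed nucleotide. It was highest 1 nt downstream of it, at 62.3 ± 10.2% (SD, n = 5), and there it was 47.2, 68.4, 56.8, 66.7 and 72.6% in the 5 libraries in the order above. In DENR overexpressing replicate 1, with 36 sites, the highest value was at the listed nucleotide itself. The maximum at 1 nt downstream was present on both strands, with 65.8% of the plus-strand positions against 56.4% at the listed nucleotide, and 65.0% of the minus-strand positions against 58.9%. At 20 nt upstream the share was between 23.1 and 37.9%, and at 20 nt downstream between 30.6 and 46.2%, highest in non-transfected replicate 2. Whether the listed coordinate is the crosslinked nucleotide or the one before it is not settled by the lists, so the share at the listed nucleotide need not be that at the crosslink.

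**Figure D2:**
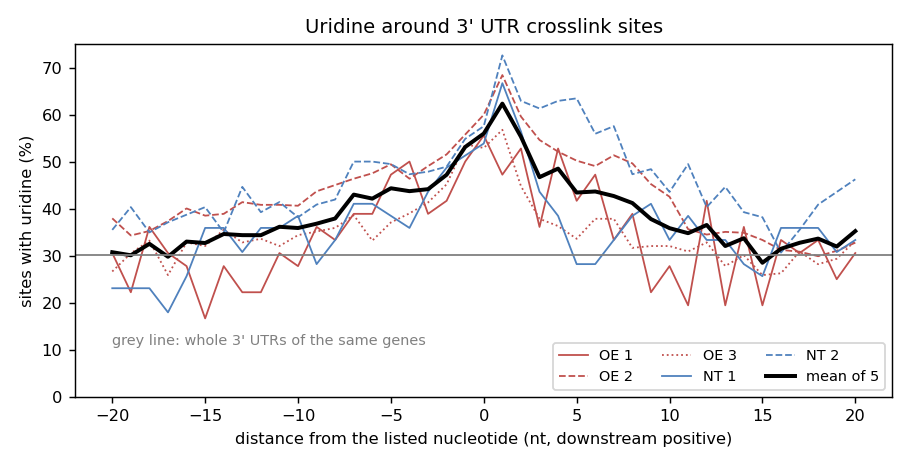
Percentage of 3′ UTR sites with uridine at each distance from the listed nucleotide (nt, downstream positive) in each DENR library (thin lines) and as the mean of the 5 (thick line). The grey line is the uridine content of the whole 3′ UTRs of the same genes, 30.1%, and the mean is highest 1 nt downstream, at 62.3%.

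Of the 5 motifs searched, a run of 8 uridines differed most in frequency between site windows and 3′ UTRs as a whole. Of 1017 windows of 41 nt around the DENR positions that lay whole within the transcript, 31.4% held TTTTTTTT, against 1.13% of 679306 windows that tile all 3′ UTRs and 1.59% of those that tile the 3′ UTRs of the genes with sites. The polyadenylation hexamers did not differ in this way. AATAAA was in 2.26% of the site windows and 3.40% of all tiles, and ATTAAA in 3.15 and 2.23%. The core of AU-rich decay elements, ATTTA, was in 5.90 and 6.57%, and the Pumilio site TGTANATA in 0.393 and 0.790%. Windows were read on the strand of the gene, and a window with TTTTTTTT may hold the other motifs too. A match is a description of the letters and not evidence of a bound factor.

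The tract share divided the libraries but not the groups. Sites with TTTTTTTT in the window made up 16.7, 38.1 and 15.4% of the 3′ UTR sites with overexpression and 12.8 and 40.3% without transfection. DENR overexpressing replicate 2 and non-transfected replicate 2 were thus high, and the other three libraries low. When sites within 15 nt of each other were counted once, the shares were 10.5, 20.6, 8.05, 8.70 and 25.6% in the same order, so the same libraries stayed high. In CDS sites the share was 1.26% in DENR overexpressing replicate 2 and 0 in the other four, and the 3′ UTR share exceeded it by 24.4 ± 13.1 percentage points (SD, n = 5; 5 of 5 libraries, exact sign-flip permutation test, p = 0.0625). How often TTTTTTTT occurs in coding sequence as a whole was not computed, so this comparison cannot tell site choice from sequence content. Sites outside the tracts were also rich in uridine, with 56.7, 45.1, 46.6, 47.1 and 47.7% at the listed nucleotide. The 319 tract positions lay in 76 genes. Sequence of this kind is hard to place uniquely: the 25 nt printed for a position also occurred in transcripts of other genes for 87 positions, 58 of them at tracts.

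Within the 3′ UTR the sites lay nearer to the stop codon than to the transcript end. The median distance from the stop codon was 506.5, 408 and 484 nt with overexpression, and 552 and 560.5 nt without transfection. The median distance to the annotated end was 767.5, 1093 and 1113 nt, and 785 and 1426.5 nt. Medians from the stop codon did not overlap between the groups, and the overexpressing value was 0.835 of the non-transfected one (exact permutation test, p = 0.2, the smallest possible; adjusted p = 0.7 over 7 tests). With sites of score 1 left out, this difference changed direction. The distance to the end (0.924-fold, p = 0.8) and the relative position (0.311 ± 0.074, SD, n = 3, against 0.299 ± 0.039, SD, n = 2, as a fraction of the 3′ UTR; p = 0.8) overlapped between groups in the same exact permutation test.

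When each 3′ UTR was cut into 5 equal parts, the part next to the stop codon held the most sites in all 5 libraries. It held 33.3, 34.5, 31.7, 35.9 and 43.0% of the sites, where an even spread would give 20%. The part at the transcript end held 11.1, 12.3, 14.3, 10.3 and 14.0%, below that level in 5 of 5 libraries. With neighbouring sites merged the part next to the stop codon held between 29.4 and 39.0%, and without tract windows between 26.7 and 41.2%. Distances were taken on annotated transcripts, and which poly(A) sites the cells used was not measured.

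**Figure D3:**
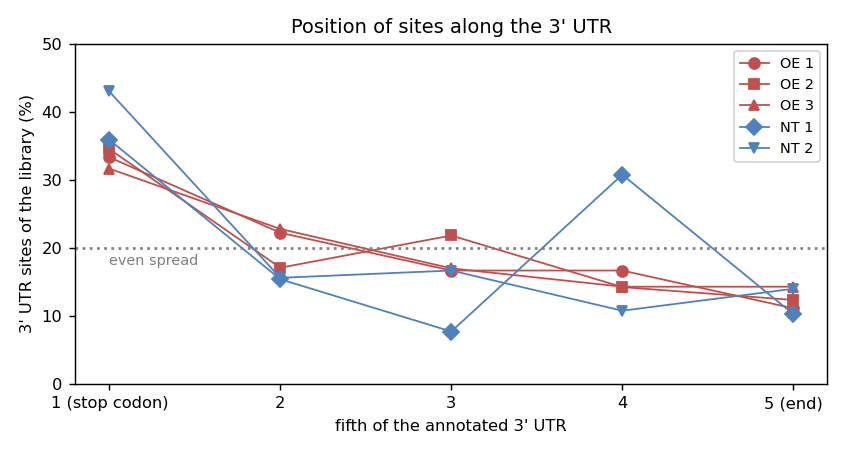
Percentage of the 3′ UTR sites of each DENR library in each of 5 equal parts of the annotated 3′ UTR, from the stop codon (1) to the transcript end (5), with a dotted line at the 20% of an even spread. All 5 libraries are highest in the part next to the stop codon, between 31.7 and 43.0%, and NT 1, with 39 sites, has a further high value in part 4.

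The immediate vicinity of the stop codon was not uniformly favoured. Within 50 nt of it lay 3, 25 and 13 sites in the overexpressing libraries and 6 and 3 in the non-transfected ones. These were 8.33, 4.74, 5.02, 15.4 and 1.61% of the sites, where an even spread over the same 3′ UTRs would give 3.04, 5.23, 4.51, 3.91 and 4.06%. The share was above the even value in 3 libraries and below it in the others. Within 50 nt of the transcript end lay 0, 13, 6, 0 and 4 sites, below an even spread in all 5 libraries.

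The genes with sites had long 3′ UTRs. Among 21026 protein-coding genes with an annotated 3′ UTR, 480 (2.28%) had a site in at least 1 DENR library, and 47 (0.224%) had one in more than 1. The median 3′ UTR was 2051 nt in the genes with a site and 831 nt in all genes. When all genes were split by 3′ UTR length into 4 bins of nearly equal size, 0.512% had a site in the bin of up to 301 nt. In the bins above this was 1.26 and 2.34%, and in the bin from 1841 nt 5.03%. From the shortest to the longest bin there were 56, 159, 305 and 502 positions. A longer 3′ UTR offers more nucleotides. Sites per nucleotide were not computed, so a preference for long 3′ UTRs was not tested. Of the 480 genes, 243 had a single position and 31 had 5 or more. A list of sites does not report mRNA abundance, so the part of expression in these counts was not tested.

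The 10 genes with the most positions held 129 of the 1022, or 12.6%. Among them were genes of the cytoskeleton (Actb, Plec, Myh9) and the fibrillar collagens (Col1a1, Col1a2, Col3a1), and the positions of a gene formed 1 to 3 clusters when sites within 15 nt were merged. Actb, which encodes cytoplasmic beta-actin, had 32 positions, with 17 in DENR overexpressing replicate 2, 4 in replicate 3, 12 in non-transfected replicate 2 and none in the first replicate of either group. They spanned 136 to 554 nt of a 683-nt 3′ UTR, and 31 of them had a uridine tract in the window. Plec, which encodes the cytoskeletal linker plectin, had 24 positions from 68 to 881 nt after the stop codon, 18 in overexpressing replicate 2, 2 in replicate 3 and 8 in non-transfected replicate 2, and 22 of them were by a tract. Overexpressing and non-transfected replicate 2 had 1 nucleotide in common in Actb, at 296 nt, and 4 in Plec, at 84, 85, 98 and 105 nt.

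Cavin1, a coat protein of caveolae, had 11 positions between 132 and 145 nt, all in DENR overexpressing replicate 2 and all by the tract shown above. Alyref, an mRNA export adaptor, had 9 positions in that library alone, 121 to 212 nt after the stop codon, all by a tract. The sequence around the Alyref position at 212 nt also occurred in transcripts of 9 other genes. Ywhae, the 14-3-3 epsilon protein, had 10 positions between 151 and 167 nt, with 5 in overexpressing replicate 2, 1 in replicate 3 and 5 in non-transfected replicate 2. The Ywhae sequence shown, at 154 nt, also occurred in transcripts of 5 other genes. Its position was the one shared by overexpressing and non-transfected replicate 2. Sequences of that length around the other Ywhae positions up to 156 nt were not unique either. Those at 158, 161, 162 and 167 nt were, and each of these libraries listed at least 1 of them. Myh9, the heavy chain of non-muscle myosin IIA, had 9 positions between 1084 and 1101 nt, 5 in overexpressing replicate 2 and 4 in replicate 3. Trp53, the p53 tumour suppressor, had 8 positions between 375 and 382 nt, 3 in overexpressing replicate 2 and 5 in replicate 3, at 59 to 66 nt from the transcript end. In these 5 genes every position was by a uridine tract.

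The fibrillar collagens had few positions by a tract. Col1a2, the alpha 2 chain of type I collagen, had 10 positions at 6 to 25 nt after the stop codon, of which none was by a tract and 2 were at uridine. Of these, 7 were in DENR overexpressing replicate 2 and 5 in replicate 3, so that 2 positions were shared. Col3a1, type III collagen, had 8 positions between 94 and 204 nt, with 4 in overexpressing replicate 1, 4 in replicate 2 and 2 in replicate 3, and 6 of the 8 were at uridine but none by a tract. Col1a1, the alpha 1 chain of type I collagen, had 8 positions between 79 and 166 nt, 2 in overexpressing replicate 2 and 6 in replicate 3, with a highest score of 5, and 3 of the 8 were at uridine and 2 by a tract. None of the 3 collagen genes had a 3′ UTR site in a non-transfected library. The non-transfected libraries listed 23 and 79 of the 480 genes, so most genes with a site had none there. Whether the groups differ at these genes was not tested.

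**Figure D4:**
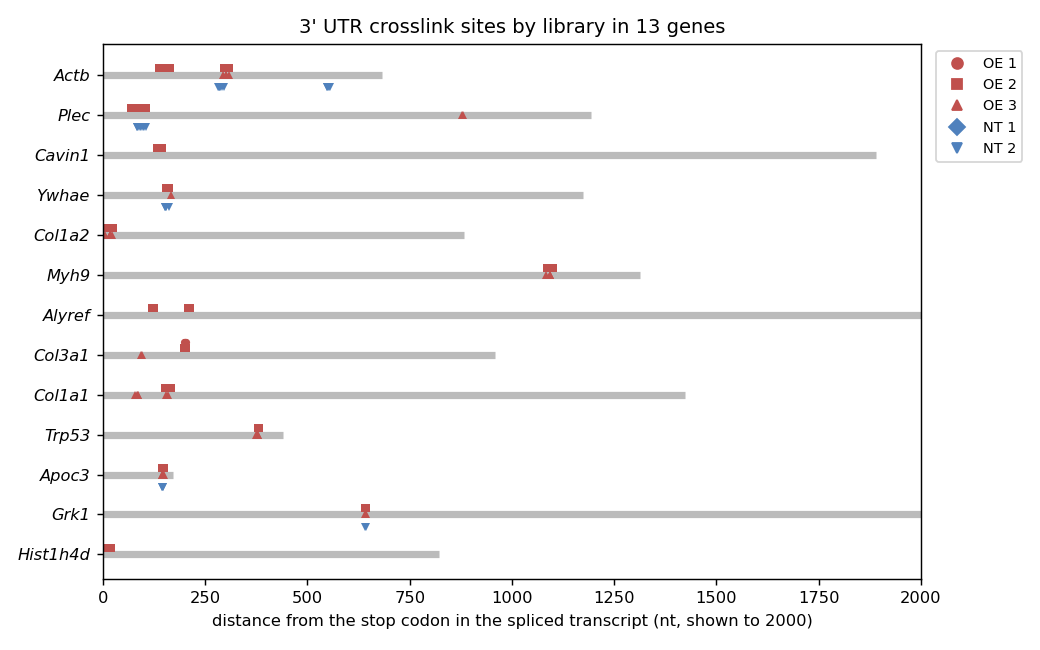
3′ UTR crosslink sites by DENR library along the 3′ UTRs (grey bars) of the 10 genes with the most positions and of Apoc3, Grk1 and Hist1h4d, by distance from the stop codon (nt). Sites form short clusters, such as 132 to 145 nt in Cavin1 and 6 to 25 nt in Col1a2. The bars of Alyref and Grk1 run past the end of the axis.

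Few positions were listed in more than 1 library. Of the 1022 positions, 1000 were in 1 DENR library, 19 in 2 libraries, 3 in 3 libraries and none in 4 or 5. The 22 positions in more than 1 library were 2.15% (95% Clopper-Pearson interval 1.35 to 3.24%). Without DENR overexpressing replicate 2 the share was 0.971%, and without non-transfected replicate 2 it was 1.29%. In the CDS this was 1.36% of 1471 positions (0.832 to 2.09%), and among all listed positions it was 34.6%. With all 5 libraries the intervals of 3′ UTR and CDS overlapped, and both lay far below that of the lists as a whole (34.0 to 35.2%). The whole lists are an unlike set. They include mitochondrial RNA, the pre-rRNA copy, Lars2 and Acvr2b. Their mean score was 3.80 to 9.65 in the DENR libraries, against 1.43 to 2.27 for 3′ UTR sites. Repeat at equal score was not tested. The largest overlap was between DENR overexpressing replicate 2 and non-transfected replicate 2, with 12 shared positions, or 2.28% of the former and 6.45% of the latter. Overexpressing replicates 2 and 3 shared 8 positions, 1.52 and 3.09% of each list, and the 2 non-transfected libraries shared none. Allowing 5 nt or 15 nt between positions raised the repeated share to 9.39 and 11.1%.

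A larger share of genes than of nucleotides was listed in more than 1 library, but a gene counts wherever in its 3′ UTR the sites lie. The coarser unit by itself favours a larger share. Of the 480 genes, 47 (9.79%, 95% Clopper-Pearson interval 7.28 to 12.8%) had sites in more than 1 DENR library, 38 of them in 2 libraries and 9 in 3. Overexpressing replicates 2 and 3 shared 26 genes, 10.5 and 15.5% of their genes. Non-transfected replicate 2 shared 14 genes with overexpressing replicate 2 and 15 with overexpressing replicate 3. The 9 genes with sites in 3 libraries were Actb, Plec, Ywhae, Col3a1, Apoc3, Grk1, Slc38a1, Slc25a37 and Eif4e2. Except for Col3a1, which was found in the 3 overexpressing libraries, these were listed in overexpressing replicates 2 and 3 and in non-transfected replicate 2, the libraries with the most 3′ UTR sites.

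**Figure D5:**
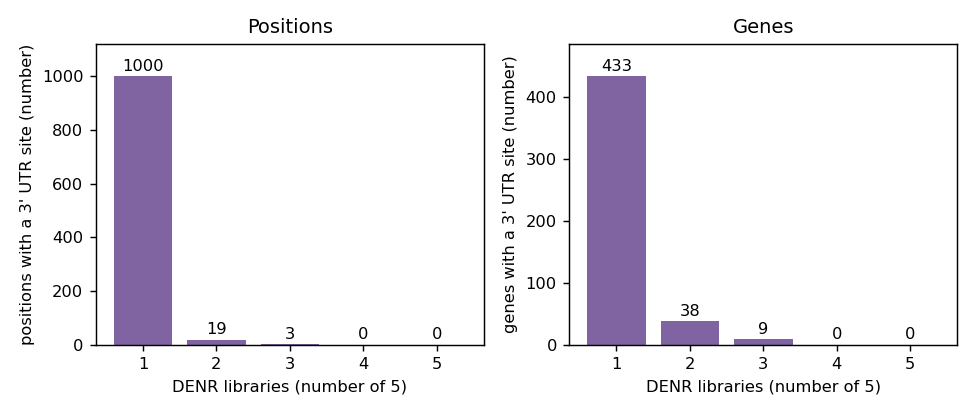
Number of 3′ UTR positions (left) and of genes with a 3′ UTR site (right) by the number of DENR libraries that listed them. Of the positions 1000 were in a single library and 22 in more, while 433 genes were in a single library and 47 in more.

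The 22 repeated positions lay in 10 genes, and 5 of them were in Apoc3, a secreted inhibitor of lipoprotein lipase that is normally made in liver. Its positions ran from 144 to 148 nt after the stop codon, 24 to 28 nt before the transcript end, at and just before the hexamer aataaa of the sequence above. The position shown had scores of 10 in DENR overexpressing replicate 2, 4 in replicate 3 and 7 in non-transfected replicate 2, and was absent from the first replicate of both groups and from IgG. The summed score of Apoc3 was 17 in overexpressing replicate 2, 13 in replicate 3 and 17 in non-transfected replicate 2. The total of 47 was the same as that of Actb, which had 32 positions. The 25 nt shown did not occur in a transcript of another gene. None of the 5 hepatocyte markers examined had a 3′ UTR site. Their median 3′ UTR was 169 nt, and 2.28% of all genes had a site. So few genes cannot show whether liver transcripts were present.

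Grk1, the rhodopsin kinase of photoreceptors, had 5 positions between 640 and 644 nt of a 5693-nt 3′ UTR. The position shown scored 8 in overexpressing replicate 2 and 1 in non-transfected replicate 2, and a neighbouring nucleotide was listed in overexpressing replicate 3. Slc25a37, the mitochondrial iron importer mitoferrin 1, had 4 positions between 1292 and 1299 nt, and the position shown scored 3 in overexpressing replicate 2 and 2 in replicate 3. Eif4e2, a cap-binding homologue of eIF4E, had 3 positions between 2155 and 2158 nt at the start of a uridine tract, and the position shown scored 3, 1 and 2 in overexpressing replicates 2 and 3 and non-transfected replicate 2. Tmem245, a transmembrane protein gene, shared a position between overexpressing replicate 2, with a score of 2, and non-transfected replicate 1, with a score of 1. Slc38a1, a neutral amino acid transporter, had sites in 3 libraries but no nucleotide in common between them, and its positions ran from 567 to 4527 nt.

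Gene lists that bear on translation and on fibroblasts were read against the 2.28% of all genes with a site. That share is over 21026 annotated genes, whether or not the cells express them. The lists were chosen with earlier results of these data known. How far expression and 3′ UTR length enter the shares of the lists was not tested. Of 10 genes examined in the study for DENR function, including Denr, Mcts1, Eif2d and Clock, none had a 3′ UTR site. At a share of 2.28%, 10 genes are too few to tell this from all genes. Of 87 cytosolic ribosomal protein genes none had one, and the median 3′ UTR of that list was 87 nt. Of 55 genes with translation initiation factor symbols 4 (7.27%) had sites, namely Eif4g2, Eif1ad, Eif4e2 and Eif4ebp2. Eif4g2, an eIF4G-related protein, had 5 positions between 363 and 484 nt, 2 in overexpressing replicate 3 and 3 in non-transfected replicate 1. Eif1ad and Eif4ebp2 are named after initiation factors, and the latter encodes a repressor of eIF4E.

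Of 54 replication-dependent histone genes 2 (3.70%) had sites, near the 2.28% of all genes. In both cases the sites were close to the stop codon and in DENR overexpressing replicate 2. The median 3′ UTR of the list was 134 nt, so most positions in such genes are close to it. The annotated 3′ UTR was 90 nt in Hist1h3a and 822 nt in Hist1h4d. Hist1h4d, a histone H4 gene, had 6 positions from 12 to 20 nt, and Hist1h3a, a histone H3 gene, had 3 from 19 to 22 nt. No tract was in the window of these positions.

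Extracellular matrix genes had sites in 6 of 32 cases (18.8%), with 34 positions. Besides the 3 collagens these included Serpinh1, the collagen chaperone, with 4 positions, and Sparc, a matricellular protein, with 3 positions between 30 and 40 nt in overexpressing replicate 1. Cytoskeleton and adhesion genes had sites in 7 of 41 cases (17.1%), with 57 positions. Besides Actb and Myh9 these were Cfl1 (cofilin), Pfn1 (profilin) and Tubb5 (beta-tubulin) with 4 positions each and Actn4 (alpha-actinin) with 3, and 1 further gene had a single position. Fibroblast markers had sites in 4 of 10 cases, the collagens and Sparc, which are the same genes as counted in the matrix list. The other fibroblast markers, among them Vim and Fn1, had no site. Of the 5 markers each of hepatocytes, neurons, leukocytes and epithelium none had a site. With 2.28% of all genes having one, lists of 5 genes are too short to show a contrast between cell types. The lists differ in 3′ UTR length, with medians of 1028 nt for matrix and 760.5 nt for cytoskeleton genes.

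Genes that act on 3′ UTRs had sites in 6 of 37 cases (16.2%), with a median 3′ UTR of 2288 nt. Of all genes with a 3′ UTR from 1841 nt, 5.03% had a site. Ago2 and Ago3, the Argonaute proteins of microRNA silencing, had 4 positions each, those of Ago2 in 2 libraries between 5745 and 5930 nt. Upf1, the nonsense-mediated decay helicase, had 3 positions, Ddx6 and Tnrc6a had 2 each, and Xrn1, the 5′ to 3′ exonuclease, had 1. Immediate-early and AU-rich element genes had sites in 3 of 30 cases (10.0%), namely the phosphatase gene Dusp1 with 5 positions between 292 and 316 nt, Hif1a with 2 and Zfp36l2 with 1. Circadian clock genes had sites in 2 of 24 cases (8.33%), a single position in each of Csnk1d, the casein kinase 1 delta gene, and Rora, a nuclear receptor gene.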

How the data were processed

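The deposited lists hold crosslink sites with a score per site, a whole number signed by strand. The authors aligned reads to mm10 (methods: Bowtie 0.12.7; submitters' notes: Bowtie2), removed reads with equal molecular identifier and start, and called sites in each library with iCount peaks (100 permutations, 15-nt flank, false discovery rate 0.05). Track lines in 6 of the 7 lists state separate regions, the methods regions as one. The lists stop at the calling threshold, so depth is unknown.

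The listed nucleotide was placed on GENCODE M21 transcripts, ranked by complete end, APPRIS, support level and length. Distances are spliced. Group means per library were compared by two-sided exact permutation tests with Benjamini-Hochberg adjustment over 7 tests. The 3′ UTR against CDS comparison was chosen after values were seen. Structural RNA matches came from blastn 2.17.0 (101 nt, e-value 1e-05). Functions were tested on simulated data with Python 3.11.15, numpy 2.4.6 and scipy 1.17.1.

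Named were the 10 genes with most positions, genes with repeated positions, the 10 in most libraries, the highest-scoring gene of each list, IgG genes and members of the gene lists with sites, and Denr, Mcts1, Eif2d and Clock. Members and lists were chosen with earlier results of these data known. Sequences of Cavin1, Myh9, Trp53, Hist1h4d and Sparc, and Bcap31, were chosen after their values were seen. A gene and a sequence under these rules are not reported here. Alternatives were a minimum score of 2, merging within 15 nt, unambiguous annotation, no structural RNA match, weighting, another transcript, single libraries left out and a replicate block.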

Additional observations from a re-analysis of the deposited data

How the results depend on the processing

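Of 109 alternative values 84 kept their direction or interval, 18 changed sign and 7 moved. No comparison of overexpressing with non-transfected libraries can go below p = 0.2 by exact permutation in this design. All changes of sign were in such comparisons, so the directions concerned depended on the processing or on single libraries. The lists give no depth, and the causes of the changes were not tested.

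With a minimum score of 2, the log10 difference (overexpressing minus non-transfected) was 0.22 for the distance to the stop codon and 0.19 for the distance to the end, and the share of repeated positions was 1.08%. With sites within 15 nt merged, the difference in uridine share was -0.772 percentage points and the repeated share 0.917%. With unambiguous annotation, the 3′ UTR share differed by 0.500 points and the uridine share by -0.701 points. Without structural RNA matches the uridine share differed by -0.194 points. On the transcript with the longest 3′ UTR the relative position differed by -0.0111. Tolerances of 5 and 15 nt gave repeated shares of 9.39 and 11.1%. In windows without a T tract, an alternative chosen after seeing the data, the 3′ UTR share differed by 0.114 points.

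Leaving out single libraries gave these ranges: -0.039 to 0.64 (log10 sites, overexpressing minus non-transfected), 1.81 to 2.12 (log10 of sites + 1, DENR minus IgG), -14.8 to 11.9 points (3′ UTR share), -0.0176 to 0.0536 (relative position), -0.10 to -0.05 (log10 distance to the stop codon), -0.16 to 0.10 (log10 distance to the end), -1.52 to 2.17 points (uridine share), 0.971 to 2.13% (repeated positions) and 6.05 to 9.23% (repeated genes). Site number changed sign (-0.039) without non-transfected replicate 1. The repeated positions fell to 0.971% without DENR overexpressing replicate 2 and 1.29% without non-transfected replicate 2, and the repeated genes to 6.05% without DENR overexpressing replicate 3.

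The replicate numbers are shared between groups, but the sources used here do not say that they mark a batch, and deviations of same-numbered libraries over 480 genes correlated by 0.0588 and 0.0874. With replicate number as a block the 3′ UTR share differed by 3.03 points (exact sign-flip permutation test, p = 1), and the log10 number of sites by 0.21. The block changed no other direction. It leaves out DENR overexpressing replicate 3, which has no counterpart, and it gave the same values as leaving out that library.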
